A study of Mus musculus with 2 samples.

Results

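Transcription factors that direct granulopoiesis, the making of neutrophils from blood progenitors, were measured in spleen neutrophils. They were PU.1 (Spi1), Runx1 and the C/EBP family members Cebpa, Cebpb, Cebpd, Cebpe and Cebpg. The others were the repressor Gfi1, the Myc antagonist Mxd1 and the E protein inhibitor Id2. The 10 genes were taken by symbol from 55536 annotated Ensembl genes, of which 22028 are protein coding, and all 10 were detected in both libraries. The material was total RNA of primary neutrophils from the spleen of adult male B6CASTF1/J mice aged 65 days, the F1 cross of a C57BL/6 dam with a CAST/EiJ sire. The labels give 1 group of 2 libraries, biological replicates 1 and 2. Per the labels each took 300 ng of input RNA, ERCC spike-in controls and a directional kit. Both carry the same donor identifier, so separate animals are not shown and the spread between the libraries may be technical in part. No treatment, second genotype or other cell type was used here, so levels are a description, and the only test compares the libraries with each other.

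PU.1 and C/EBPα act early, turning multipotent progenitors towards the myeloid lineage and switching on growth factor receptors and the first granule genes. C/EBPε then takes over in the promyelocyte and myelocyte, where secondary granule genes are made, while C/EBPβ can sustain granulocyte output under stress. Gfi1 represses monocyte and stem cell programmes, Mxd1 competes with Myc for their shared partner Max as cells stop dividing, and Id2 keeps E proteins off DNA.

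The factors covered a wide range of transcript levels, given as TPM, a level that is corrected for transcript length and scaled to the sum over all transcripts of a library. Mxd1 was highest at 439 ± 70.0 TPM, followed by Cebpb at 233 ± 39.8 and Spi1 at 204 ± 67.5 TPM, and Gfi1 was lowest at 5.62 ± 0.0778 TPM (mean ± SD, n = 2 libraries). In replicate 1 the members' median was 31.7 TPM, beside 0.33 TPM for all protein-coding genes, and in replicate 2 it was 54.2 TPM, beside 0.40 TPM. In both libraries 9 of the 10 members reached 10 TPM, a level that 22.3% of protein-coding genes reached. Together the members took 0.345% and 0.337% of protein-coding counts. In bulk RNA, fewer cells of a type and less RNA per cell cannot be told apart.

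**Figure D1:**
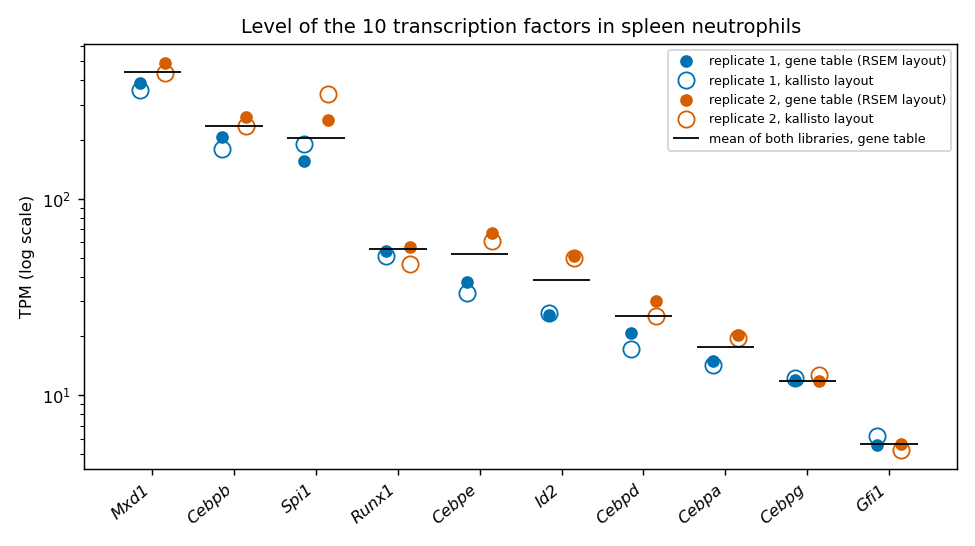
TPM of each factor on a log axis, with replicate 1 left of replicate 2; filled points are the gene table, open points the summed transcripts of the kallisto-layout table, and bars the mean of both libraries in the gene table. Mxd1, Cebpb and Spi1 lie above 100 TPM in both libraries and Gfi1 lies below 10 TPM.

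In order of mean level the factors ran Mxd1, Cebpb, Spi1, Runx1, Cebpe, Id2, Cebpd, Cebpa, Cebpg and Gfi1. Of the 9 neighbouring pairs in this order, 5 had library ranges that did not overlap: Mxd1 over Cebpb, Spi1 over Runx1, Cebpd over Cebpa, Cebpa over Cebpg, and Cebpg over Gfi1. The pairs Cebpb and Spi1, Runx1 and Cebpe, Cebpe and Id2, and Id2 and Cebpd overlapped between libraries. Within each library, however, Cebpb exceeded Spi1 1.31-fold and 1.04-fold, Cebpe exceeded Id2 1.47-fold and 1.31-fold, and Id2 exceeded Cebpd 1.23-fold and 1.71-fold, so 8 of the 9 pairs kept their order in both. In the kallisto layout Spi1 stood above Cebpb in both libraries, at 190 and 343 TPM against 179 and 236 TPM. Runx1 and Cebpe changed places in the gene table, since Runx1 was the higher in replicate 1 and Cebpe in replicate 2.

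Spi1 encodes PU.1, the Ets-family factor required for both granulocytes and macrophages (ENSMUSG00000002111.8, chr2:91082390-91115756, plus strand, mm10). Its level was 156 TPM in replicate 1 and 252 TPM in replicate 2, from 4844 and 6100 expected counts, which placed it at percentiles 98.6 and 98.9 of protein-coding genes. Among the 9 other Ets factors read, Ets2 was the highest at 125 ± 32.7 TPM, followed by Fli1 at 37.4 ± 12.2, Etv6 at 30.1 ± 4.03 and Ets1 at 25.1 ± 4.62 TPM. Spi1 exceeded Fli1, a factor of megakaryocytes and endothelium as well as myeloid cells, 5.43-fold and 5.48-fold in the 2 libraries. The closest relatives of PU.1 were the lowest of the list: Spib, a B cell and plasmacytoid dendritic cell factor, was at 1.77 ± 1.22 TPM, and Spic, a factor of red pulp macrophages, was at 0.11 ± 0.113 TPM. In all, 7 of the 9 reached 1 TPM in both libraries.

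Spi1 was the member whose leading transcript, by the mean of both libraries, differed between the 2 quantifications. GENCODE M21 lists a start 13706 bases upstream of the start of Spi1-201, used by Spi1-204, a coding model annotated as incomplete, and by the processed transcript Spi1-202. The RSEM-layout table put 26.7% and 40.6% of Spi1 TPM on this distal start in replicates 1 and 2, and the kallisto-layout table put 47.1% and 59.7% there. Spi1-201, the full-length coding transcript, led in the RSEM layout at 103 TPM and 145 TPM in replicates 1 and 2. In the kallisto layout Spi1-204 stood at 73.3 TPM and 182 TPM, and Spi1-201 at 88.2 TPM and 127 TPM. There Spi1-201 led in replicate 1, and Spi1-204 led in replicate 2 and by the mean. By expected counts, which are not divided by length, the distal start held only 11.7% of the gene on average. The share of the distal start was therefore not settled by these tables, although both put it higher in replicate 2.

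Runx1, the core binding factor subunit that blood stem cells and several later lineages need, is a gene of 2 known promoters (ENSMUSG00000022952.17, chr16:92601466-92826149, minus strand). Its level was 54.1 TPM in replicate 1 and 57.1 TPM in replicate 2, from 2493 and 2431 counts. Cbfb, which encodes the non-DNA-binding partner, was at 26.9 ± 1.24 TPM, so that Runx1 exceeded it 2.08-fold and 2.06-fold. Runx2, better known from bone, followed at 21.7 ± 1.69 TPM, Cbfa2t3 at 5.50 ± 0.827 TPM and Runx3, a lymphocyte factor, at 5.02 ± 0.120 TPM. Runx1t1 had 0 counts in both libraries, which allows up to 3 counts in each.

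The most upstream GENCODE 5′ ends of the distal and proximal start groups of Runx1 lie 128821 bases apart. Sequences before the 2 RefSeq starts are shown because transcripts of both groups were read. Each is the 250 bases before the RefSeq start, 5′ to 3′ on the strand of the gene, from GRCm38.p6 (mm10). Capitals mark matches, on either strand, to any of the motifs searched. These were the C/EBP site TTGCNNAA, the E-box CACGTG bound by Myc, Max and Mxd dimers, and the core GAGGAA that PU.1 prefers. The Runx site was searched as TGTGGT and the GC box as GGGCGG. The CCAAT box was searched by the letters of its name, and the TATA box as TATAAA. The distal window is chr16:92826075-92826324 and the proximal window chr16:92697330-92697579, both on the minus strand.
Runx1 distal: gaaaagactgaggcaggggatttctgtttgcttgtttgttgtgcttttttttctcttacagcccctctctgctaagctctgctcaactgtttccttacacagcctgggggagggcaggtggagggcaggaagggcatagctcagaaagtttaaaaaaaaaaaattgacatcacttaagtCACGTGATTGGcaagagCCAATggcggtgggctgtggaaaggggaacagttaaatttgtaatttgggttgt
Runx1 proximal: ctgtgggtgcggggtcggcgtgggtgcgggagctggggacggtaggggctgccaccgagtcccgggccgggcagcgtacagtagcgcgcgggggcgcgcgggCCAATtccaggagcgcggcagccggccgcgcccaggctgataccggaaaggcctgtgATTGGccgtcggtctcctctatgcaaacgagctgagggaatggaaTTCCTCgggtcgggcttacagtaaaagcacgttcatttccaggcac
The distal window had a GC content of 45.6% with 2 CpG dinucleotides, and the proximal window 67.6% with 27. The distal window held an E-box 71 bases before the RefSeq start, directly next to a CCAAT box 65 bases before it, without overlap, and another CCAAT box at 54 bases. GENCODE M21 puts the 5′ end of the distal transcript Runx1-201 at 92826149, inside this window. The matches of the distal window lie downstream of that end. The proximal window held a PU.1 core at 46 bases and CCAAT boxes at 148 and 91 bases. Over all 32851 mouse RefSeq windows of this length, 6.02% held the E-box, 23.3% the PU.1 core, 33.8% a CCAAT box, 32.7% a GC box, 12.4% the TATA box, 14.0% the Runx site and 9.56% the C/EBP site. A match describes letters only and shows no binding.

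Transcripts of the distal Runx1 start took 56.2% and 56.9% of the gene's TPM in the RSEM layout and 55.8% and 48.6% in the kallisto layout, in replicates 1 and 2. The proximal start took 17.8% and 16.1%, and a group of starts 1203 bases further downstream took 25.9% and 27.0% in the RSEM layout. Most of the distal share was not on a full coding transcript. The processed transcript Runx1-207 held 24.9% and 24.8%, the incomplete coding model Runx1-204 held 26.1% and 23.6%, and the full-length distal Runx1-201 held 5.19% and 8.46%. In the kallisto layout Runx1-204 stood at 11.98 TPM in replicate 1 and 2.19 TPM in replicate 2, against 14.1 TPM and 13.5 TPM in the RSEM layout, so this short model was not resolved.

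**Figure D2:**
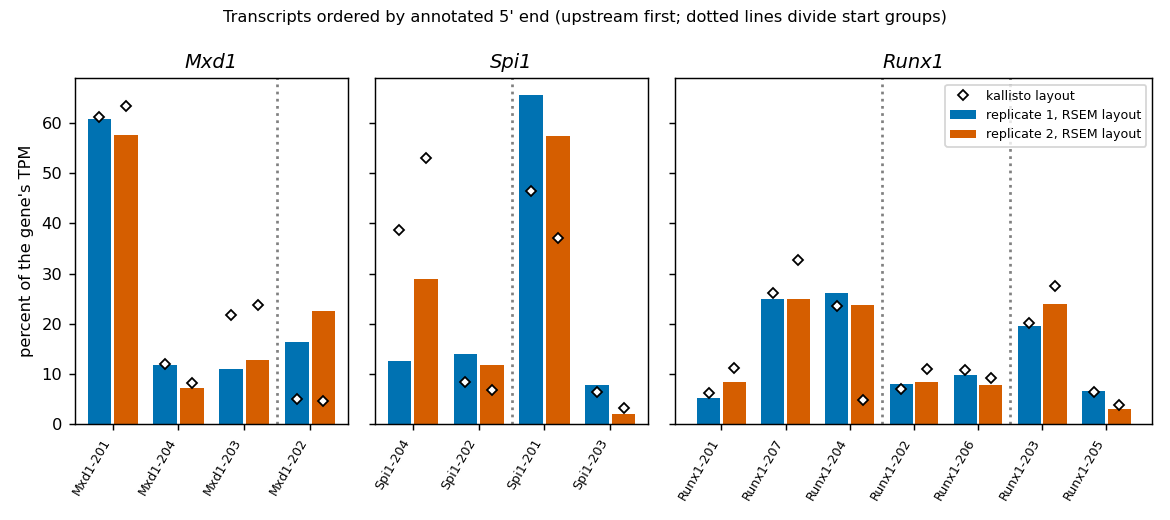
Percent of the gene's TPM on each annotated transcript of Mxd1, Spi1 and Runx1, ordered from the most upstream 5′ end, with bars for the RSEM-layout table (replicate 1 left, replicate 2 right), diamonds for the kallisto-layout table and dotted lines between groups of starts. The diamonds stand above the bars for Spi1-204 and Mxd1-203 and below them for Mxd1-202.

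The C/EBP family was dominated by Cebpb, the bZIP factor of emergency granulopoiesis and of inflammatory gene expression (ENSMUSG00000056501.3, chr2:167688915-167690418, plus strand). Cebpb was at 205 TPM in replicate 1 and 261 TPM in replicate 2. It made up 70.6% and 66.9% of the summed TPM of the 5 family members, with summed levels of 290 TPM and 390 TPM. Cebpb exceeded Cebpa 13.8-fold and 12.9-fold, and Cebpe 5.44-fold and 3.89-fold. Cebpb is annotated with 1 transcript of 1 exon, so reads from unspliced RNA or genomic DNA cannot be told apart from its mRNA. Cebpd-201 and Cebpa-201, the leading transcripts of Cebpd and Cebpa, also have 1 exon, so the same limit holds for them. Tmem189 overlaps Cebpb on the opposite strand at 124 TPM and 114 TPM. The labels name a directional kit, but the strand setting of the quantification is not stated.

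The upstream sequence of Cebpb is shown as the highest family member beside that of Cebpa, and covers chr2:167688665-167688914 on the plus strand. Capitals are as above.
Cebpb: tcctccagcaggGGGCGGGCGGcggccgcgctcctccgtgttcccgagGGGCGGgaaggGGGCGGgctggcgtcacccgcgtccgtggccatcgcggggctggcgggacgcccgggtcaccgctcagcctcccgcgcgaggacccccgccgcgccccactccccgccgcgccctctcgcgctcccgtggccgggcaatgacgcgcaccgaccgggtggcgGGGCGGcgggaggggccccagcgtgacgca
Its GC content was 81.6%, against a median of 52.4% over all windows, and it held 5 GC box matches, at 238, 234, 202, 191 and 30 bases before the start, of which the most upstream pair overlap. None of the other motifs matched.

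Cebpe encodes the factor of terminal granulocyte differentiation, without which secondary granules are not formed (ENSMUSG00000052435.7, chr14:54710360-54712174, minus strand). It was the next family member, at 37.7 TPM in replicate 1 and 67.2 TPM in replicate 2, or 12.98% and 17.2% of the family. Cebpd, an acute phase and myeloid factor (ENSMUSG00000071637.5, chr16:15887286-15891031, plus strand), was at 20.8 TPM and 30.0 TPM, or 7.17% and 7.68%. Spidr overlaps Cebpd on the opposite strand at 9.42 TPM and 10.9 TPM.

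Cebpa, the factor that commits progenitors to the granulocyte and monocyte lineage (ENSMUSG00000034957.10, chr7:35119293-35121928, plus strand), was at 14.9 TPM in replicate 1 and 20.2 TPM in replicate 2. Its share was the steadiest of the family at 5.13% and 5.17%. Cebpg, a short family member that lacks a strong activation domain and pairs with other bZIP factors (ENSMUSG00000056216.9, chr7:35046422-35056573, minus strand), was at 11.9 TPM and 11.8 TPM, or 4.11% and 3.02%. The order of the 5 shares was the same in both libraries. The Cebpa window, chr7:35119043-35119292 on the plus strand, held a TATA box match 30 bases before the start.
Cebpa: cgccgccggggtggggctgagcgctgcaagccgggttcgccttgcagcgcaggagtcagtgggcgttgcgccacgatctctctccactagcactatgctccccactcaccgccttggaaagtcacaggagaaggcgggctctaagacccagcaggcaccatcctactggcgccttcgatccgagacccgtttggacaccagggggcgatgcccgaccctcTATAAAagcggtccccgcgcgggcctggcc
It was the only one of 9 windows read for 7 members with that match, which 12.4% of all RefSeq windows held.

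**Figure D3:**
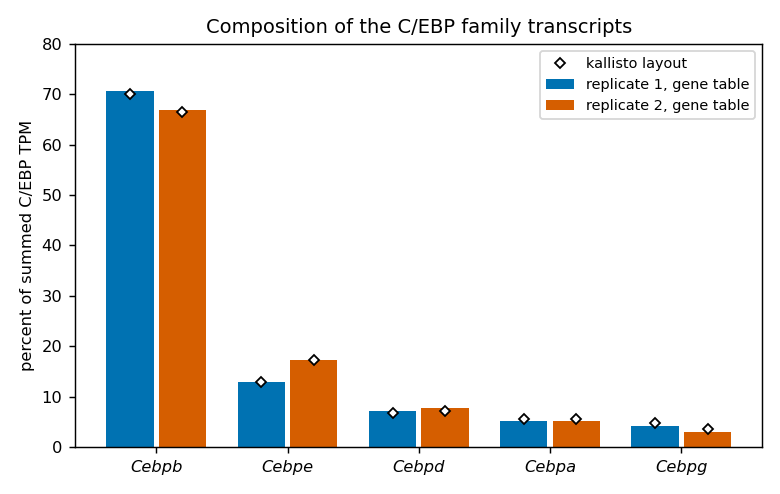
Percent of the summed C/EBP TPM taken by each family member, with replicate 1 left of replicate 2; bars are the gene table and diamonds the kallisto-layout table. Cebpb takes 70.6% and 66.9%, and every other member less than 20%.

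Of the related bZIP factors, 6 were read and all 6 reached 1 TPM in both libraries. Atf4, the stress response factor, was at 193 ± 43.7 TPM, close to the level of Cebpb, followed by Nfil3 at 38.8 ± 7.73, Jdp2 at 34.8 ± 7.03 and Batf at 5.33 ± 3.06 TPM. The lowest were Atf5 at 2.23 ± 0.283 and Hlf at 1.57 ± 0.226 TPM.

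Gfi1, the zinc finger repressor without which neutrophils are not completed (ENSMUSG00000029275.18, chr5:107716657-107726036, minus strand), was the lowest member, at 5.56 TPM in replicate 1 and 5.67 TPM in replicate 2, from 295 and 258 counts. Its paralog Gfi1b, a factor of erythroid and megakaryocytic cells, was at 2.22 ± 0.290 TPM, and Gfi1 exceeded it 2.77-fold and 2.34-fold. All 7 genes of the list of paralog and corepressors reached 1 TPM in both libraries. The histone deacetylase Hdac1 was at 24.6 ± 4.39 TPM, the methyltransferase Ehmt2 at 21.5 ± 0.523, Rcor1 at 15.9 ± 2.06 and Zbtb17 at 12.8 ± 1.82 TPM, while the demethylase Kdm1a was at 7.74 ± 0.771 TPM. The upstream window of the Gfi1 start at chr5:107725806-107726055, minus strand, is shown for its C/EBP match, 143 bases before the start. No other member window held that motif, which 9.56% of all RefSeq windows held.
Gfi1: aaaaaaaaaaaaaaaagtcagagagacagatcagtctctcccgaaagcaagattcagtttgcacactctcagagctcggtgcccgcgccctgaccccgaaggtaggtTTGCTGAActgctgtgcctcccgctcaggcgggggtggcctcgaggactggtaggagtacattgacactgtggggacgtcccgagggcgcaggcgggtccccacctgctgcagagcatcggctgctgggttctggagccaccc
The transcripts of Gfi1 were not resolved at this depth. The incomplete coding model Gfi1-204 has its 5′ end at 107726036, inside the window shown and upstream of the C/EBP match. The transcript Gfi1-201 starts 1693 bases downstream of that end. Gfi1-201 held 32.6% and 48.7% in the RSEM layout and 22.3% and 31.3% in the kallisto layout.

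Of 8 genes that Gfi1 is known to repress, 6 reached 1 TPM in both libraries. Csf1r, the macrophage growth factor receptor, was at 74.6 ± 8.44 TPM, Csf1 at 24.7 ± 1.98 and the cell cycle inhibitor Cdkn1a at 15.5 ± 3.92 TPM. The stem cell factors Meis1 and Hoxa9 were the lowest, at 0.88 ± 0.0849 and 0.08 ± 0.0141 TPM.

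Mxd1 (Mad1), which pairs with Max and represses genes that Myc activates, was the highest of the factors (ENSMUSG00000001156.9, chr6:86647042-86669161, minus strand). It was at 390.0 TPM in replicate 1 and 489 TPM in replicate 2, ranks 76 and 94 among protein-coding genes. Its counts were 27349 and 27108, nearly equal, while the effective length in the table was 3215 and 2985 bases. The upstream window of the highest member is chr6:86669160-86669409, minus strand.
Mxd1: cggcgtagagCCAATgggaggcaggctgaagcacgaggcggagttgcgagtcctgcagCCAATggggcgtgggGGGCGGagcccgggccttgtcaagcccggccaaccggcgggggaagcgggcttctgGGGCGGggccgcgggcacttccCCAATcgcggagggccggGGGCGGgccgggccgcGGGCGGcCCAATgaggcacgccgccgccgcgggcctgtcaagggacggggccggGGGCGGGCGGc
It had a GC content of 78.4%, with GC boxes at 177, 121, 81, 65, 11 and 7 bases and CCAAT boxes at 240, 192, 99 and 58 bases before the start. The last pair of GC box matches overlap each other. It held no E-box, the motif that Mxd1 and Myc share when paired with Max, in these letters.

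The network around Mxd1 was unevenly expressed. Max, the shared partner, was at 196 ± 26.7 TPM, and Mxd1 exceeded it 2.20-fold and 2.28-fold. Myc was at 2.08 TPM in replicate 1 and 3.05 TPM in replicate 2, so that Mxd1 exceeded it 187-fold and 160-fold. The antagonists Mxi1, Mxd4 and Mnt were at 37.0 ± 9.33, 23.95 ± 0.127 and 19.1 ± 2.26 TPM, each far below Mxd1. Mycl and Mycn were the lowest of the 10 genes, at 0.32 ± 0.177 and 0.13 ± 0.0566 TPM. In all, 8 of the 10 reached 1 TPM in both libraries.

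Mxd1-201, the main coding transcript, held 60.8% and 57.6% of Mxd1 in the RSEM layout and 61.3% and 63.5% in the kallisto layout, in replicates 1 and 2. The quantifications parted on the shorter models. Mxd1-203, annotated as a target of nonsense-mediated decay, was at 42.8 TPM and 61.9 TPM in the RSEM layout and at 77.6 TPM and 104 TPM in the kallisto layout. Mxd1-202, an incomplete coding model, was at 63.9 TPM and 110 TPM in the RSEM layout, but at 17.9 TPM and 20.3 TPM in the kallisto layout. The retained-intron transcript Mxd1-204 was at 46.1 TPM and 35.2 TPM in the RSEM layout. The unclassified gene Gm44292 overlaps Mxd1 on the same strand and was at 39.99 TPM and 31.5 TPM. Expected counts of both genes were whole, with 1975 and 1323 for Gm44292. A split of reads between the genes was not tested.

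Id2 binds E proteins through a helix-loop-helix domain but lacks a DNA-binding region (ENSMUSG00000020644.9, chr12:25093799-25097140, minus strand). It was at 25.7 TPM in replicate 1 and 51.3 TPM in replicate 2, from 648 and 1094 counts. Its window, chr12:25096093-25096342 on the minus strand, is shown as that of the member with the largest difference between the libraries.
Id2: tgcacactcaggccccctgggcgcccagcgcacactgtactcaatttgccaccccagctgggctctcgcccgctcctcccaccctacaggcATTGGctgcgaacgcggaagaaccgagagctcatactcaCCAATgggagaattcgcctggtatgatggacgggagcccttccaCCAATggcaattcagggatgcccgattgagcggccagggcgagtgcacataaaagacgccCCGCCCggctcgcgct
It held a GC box 16 bases and CCAAT boxes 159, 120 and 76 bases before the start. Id1 was at 13.3 ± 4.00 TPM and Id3 at 4.22 ± 1.22 TPM, and Id4 had 0 counts in both libraries, which allows up to 3 counts in each. The E proteins Tcf3 (E2A) and Tcf12 (HEB) were at 15.5 ± 3.04 and 10.5 ± 0.332 TPM, and Tcf4 (E2-2) at 7.12 ± 1.44 TPM. Id2 was 0.854 times the sum of Tcf3, Tcf4 and Tcf12 in replicate 1 and 1.43 times that sum in replicate 2. The transcript Id2-202 was listed at 0 in the RSEM layout and at 2.06 TPM and 12.8 TPM in the kallisto layout.

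**Figure D4:**
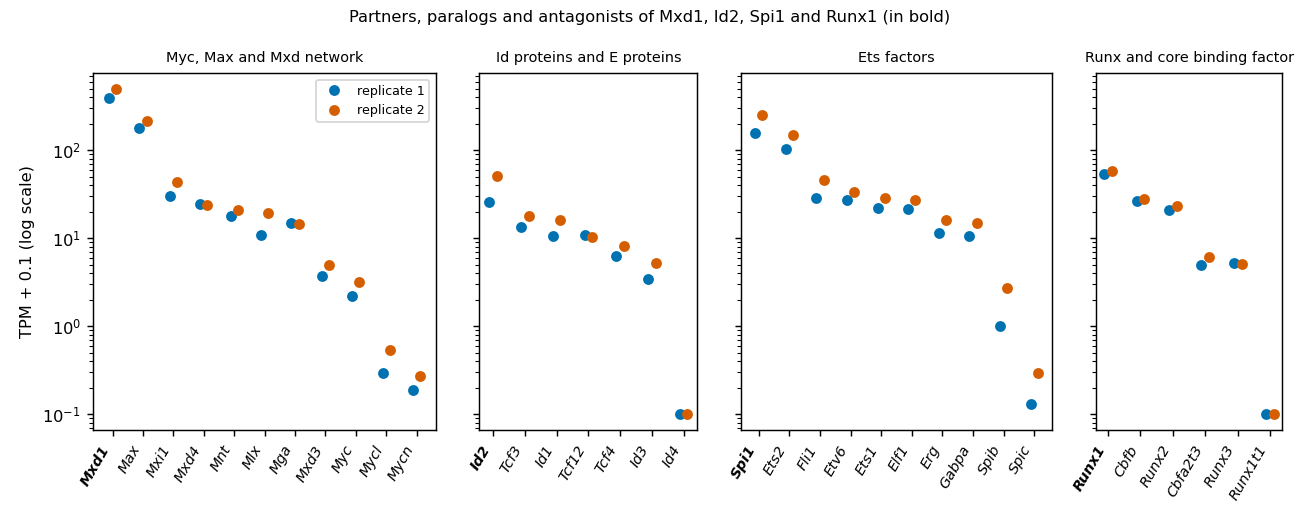
TPM + 0.1 on a log axis for Mxd1, Id2, Spi1 and Runx1 (bold) and the genes of their lists, with replicate 1 left of replicate 2. Each of the 4 factors is the highest of its panel by mean TPM, and Id4 and Runx1t1 sit at the floor with 0 counts.

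Genes known to be driven by these factors were abundant. All 8 PU.1 and C/EBPα targets reached 10 TPM in both libraries, and their medians were 170 TPM and 222 TPM in replicates 1 and 2. Csf3r, the G-CSF receptor, was at 535 ± 81.4 TPM, Csf2ra at 410 ± 53.6, the integrin Itgam at 370 ± 64.8 and myeloperoxidase Mpo, a primary granule enzyme made in promyelocytes, at 229 ± 50.02 TPM. Csf1r and Cd14 were the lowest, at 74.6 ± 8.44 and 65.1 ± 9.55 TPM. The 5 C/EBPε targets, all secondary or later granule genes, had medians of 2151 TPM and 4530 TPM. Ngp was at 6877 ± 2265 TPM, Ltf at 4734 ± 1056, Lcn2 at 3340 ± 1682 and Camp at 2553 ± 752 TPM, and the lowest, Mmp8, at 469 ± 145 TPM. Csf1r is also in the list of Gfi1-repressed genes, and Ngp, Ltf and Camp are also neutrophil markers.

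Of 11 factors of other blood fates, 7 reached 1 TPM in both libraries. Zeb2 was at 132 ± 0.940 TPM, Lmo4 at 52.1 ± 12.6 and the monocyte and dendritic cell factor Irf8 at 27.0 ± 8.90 TPM, while Irf4 was at 3.39 ± 2.31 TPM. The T cell factors Gata3 and Tcf7 were the lowest, at 0.23 ± 0.127 and 0.19 ± 0.134 TPM.

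The labelled cell type was checked on marker lists. All 9 neutrophil markers exceeded 10 TPM in both libraries, and together they reached 37056 and 74090 TPM in replicates 1 and 2. The summed levels of other lists were 4.49 and 17.4 TPM for 5 B cell markers, 45.3 and 114 TPM for 5 erythroid markers, 17.0 and 13.8 TPM for 4 platelet markers, 69.7 and 94.5 TPM for 6 basophil and eosinophil markers, 7.43 and 7.60 TPM for 4 stem and progenitor markers, and 61.9 and 65.1 TPM for 5 stromal markers, of which Col1a1 alone was at 60.2 ± 1.27 TPM. The 3 NK cell markers summed to 0.22 and 0.34 TPM, with Ncr1 at 0 counts. The T cell list summed to 32.3 and 53.9 TPM, but Cd3d alone was at 42.5 ± 15.2 TPM and the other members were below 1 TPM. In the monocyte and macrophage list C1qa and C1qb were at 0.16 ± 0.0636 and 0.10 ± 0.0141 TPM, but Adgre1 was at 9.10 ± 2.11, Vcam1 at 7.35 ± 0.955 and Cx3cr1 at 4.96 ± 2.45 TPM. Ly6c2, shared by monocytes and immature neutrophils, was at 312 ± 83.7 TPM and brought the list of 6 to 271 and 397 TPM.

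Whether the libraries differed beyond counting error was asked gene by gene, with expected counts scaled by TMM (exact binomial test, two-sided). This test compares these 2 libraries, not conditions. Of 15118 genes tested, 4847 differed at a Benjamini-Hochberg adjusted p under 0.05, which is 32.1% in either direction. Of all tested, 16.9% were higher in replicate 2 and 15.1% were so in replicate 1. The test called 8 of the 10 members, with 6 higher in replicate 2 and 2 in replicate 1. Depth enters this count: among the 6447 genes with at least the 553 counts of Gfi1, the member with fewest, 48.8% differed. The other members had more counts, and the share at their depth was not computed. The members' median log2 ratio of replicate 1 over replicate 2 was -0.14, beside 0.000298 over all genes tested.

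The largest difference was that of Id2, with a log2 ratio of -0.74 (exact binomial test, adjusted p = 3.51e-24), and it was followed by Cebpe at -0.58 (adjusted p = 6.63e-21, same exact test). Spi1 had -0.31 (exact test, adjusted p = 2.51e-28), Cebpd -0.26 (exact test, adjusted p = 3.98e-07), Cebpa -0.17 (exact test, adjusted p = 0.0433) and Cebpb -0.10 (exact test, adjusted p = 0.000462). Cebpg was higher in replicate 1 at 0.22 (exact test, adjusted p = 0.0372), and Mxd1 at 0.03 (exact test, adjusted p = 0.0414). With no count minimum 5 members differed, and the calls of Cebpa, Cebpg and Mxd1 were lost. Cebpg also lost its call with total counts and with kallisto-layout counts, where the ratios of Mxd1 turned to -0.0084 and -0.046. With total counts Mxd1 lost its call too, and 6 members differed. With kallisto-layout counts 7 members differed, among them Mxd1 as higher in replicate 2. Gfi1 at 0.21 and Runx1 at 0.05 did not pass (exact test, adjusted p = 0.195 and 0.339). None of the 4 tested genes of the Runx and core binding factor list passed.

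The direction of the count ratio was the same under TMM, total counts, DESeq2 size factors, ERCC scaling and kallisto-layout counts for Id2, Cebpe, Spi1, Cebpd, Cebpa and Cebpb. Scaling to the ERCC spike-ins, which took 0.423% of counts in replicate 1 and 0.260% in replicate 2, moved the median of all genes by -0.74 on the log2 scale. On that scale Mxd1, Runx1, Cebpg and Gfi1 were higher in replicate 2 as well, at -0.71, -0.69, -0.52 and -0.53. The deposited TPM gave another picture, with 9 of the 10 members higher in replicate 2. The 7SL RNA genes took 43.8% of TPM in replicate 1 and 31.6% in replicate 2, and TPM over protein-coding genes alone was higher in replicate 2 for only 4 members, Spi1, Cebpe, Id2 and Cebpd. On that scale Cebpb was at 624 TPM in replicate 1 and 575 in replicate 2, and Cebpa at 45.3 and 44.5, so both turned.

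**Figure D5:**
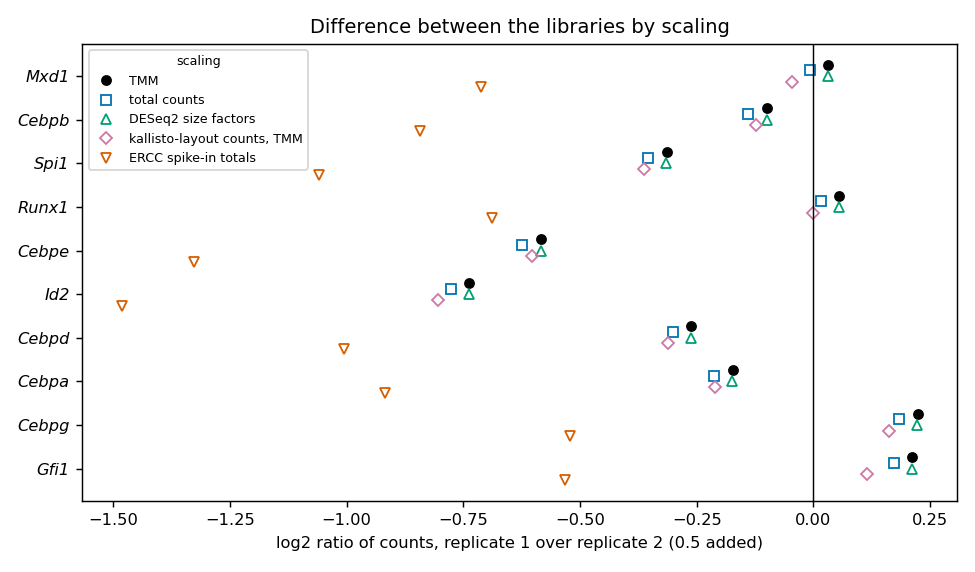
Log2 ratio of counts, replicate 1 over replicate 2, for each factor under 5 scalings; points left of 0 are higher in replicate 2. Id2 and Cebpe lie furthest left with TMM, and the ERCC scaling moves every factor left of 0.

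All 5 C/EBPε targets and all 9 neutrophil markers were also higher in replicate 2 by the same exact test, with median log2 ratios of -0.39 and -0.43 on the TMM scale. So were 4 of 5 B cell markers and 4 of 5 erythroid markers, with medians of -1.77 and -1.28. Of 4 platelet markers, 3 were higher in replicate 1 and 1, Gp9, in replicate 2. Of all genes tested 16.9% were higher in replicate 2, and of those with at least the counts of Gfi1 48.8% differed either way. Beside these shares, 2 of 5 genes of the E protein and Id list were higher in replicate 2. So were 4 of 6 bZIP factors and 1 of 7 genes of the list of Gfi1 paralog and corepressors, the paralog Gfi1b, from 21 and 43 counts. Of 8 Ets factors tested, 6 were higher in replicate 2 and 1, Etv6, in replicate 1. Replicate 2 was the higher for 5 of 8 PU.1 and C/EBPα targets and replicate 1 for 1, and for 7 Gfi1-repressed genes tested these counts were 4 and 2. Of 10 Myc network genes tested, each library had 2 that were higher. Among 11 factors of other fates, 6 were higher in replicate 2 and 1 was higher in replicate 1. These directions are on the TMM scale: over all lists 11 genes were called higher in replicate 1, and with ERCC scaling 8 of them turned while the 3 platelet markers did not. The part of these cells in the members' differences was not tested.

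The 2 quantifications gave close gene levels. No member was over 2-fold apart in both libraries, beside 4.19% of 10370 protein-coding genes with a mean of at least 1 TPM. The largest gap on the log2 scale was 0.45, for Spi1 in replicate 2, where the kallisto layout gave 343 TPM and the RSEM layout 252 TPM. In both libraries 6 members were higher in the RSEM layout and 2 in the kallisto layout. By the mean of both libraries the leading transcript was the same for 9 of the 10 members, of which Cebpb and Cebpe have 1 annotated transcript each. By replicate 1 alone it was the same for 8 members and by replicate 2 alone for 7. In replicate 1 Gfi1-202 led in the RSEM layout at 3.24 TPM, whereas in the kallisto layout it was at 0.93 TPM and Gfi1-203 at 2.13 TPM.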

How the data were processed

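The gene table and 1 of the 2 transcript tables of each library carry RSEM's columns: expected counts, TPM, FPKM and interval bounds. Per the files' accompanying notes, the authors made them from alignments to the transcriptome (mm10, GENCODE M21). The deposited TPM is scaled by effective length and sums over all entries, 7SL and ERCC included, and the deposited FPKM served only as an alternative unit. The deposited bounds of the TPM, a score here, are the quantifier's own intervals and are not printed. The other transcript table carries kallisto's columns and holds estimated counts and TPM that the authors made from the FASTQ file. Which programs and aligner were run is not given in the sources used here. How CAST/EiJ alleles were treated is not stated either, and their effect was not tested.

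The members and lists were chosen with earlier results of these data known. All 10 members are named, and of each list up to 4 genes with the highest mean TPM and up to 2 with the lowest. Myc, outside this rule, was named after its values were seen. Another gene that the rule names is not reported here. The symbol of 1 listed gene, Ddit3, stands on several entries and was not read. Expected counts summed to 18387963 in replicate 1 and to 18090108 in replicate 2, and all 10 members had whole counts within 0.005. Rounded counts of genes with at least 10 in both libraries together entered the exact two-sided binomial test given TMM library sizes, with Benjamini-Hochberg adjustment, and log2 ratios had 0.5 added to each count. Limits and tests cover counting error only, with 1 library on each side of the test. They take reads as separate molecules, which no molecular identifiers mark. The test was checked on simulated data. Transcript starts were grouped where 5′ ends lay within 1000 bases. Promoter windows come from RefSeq, and Spi1, Cebpd and Cebpe are named only. Start groups, the ratios between genes and the motifs were chosen after seeing the data. Alternatives were total counts, DESeq2 size factors, ERCC scaling, kallisto-layout values, no count minimum, FPKM, protein-coding TPM and leaving out each library. Software was Python 3.11.15, pandas 2.3.3, scipy 1.17.1, R 4.3.3, edgeR 4.0.16 for TMM and DESeq2 1.42.0 for size factors.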

Additional observations from a re-analysis of the deposited data

How the results depend on the processing

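Id2, Cebpe, Spi1, Cebpd and Cebpb kept their direction and their call under total counts, DESeq2 size factors, ERCC scaling, kallisto-layout counts and no count minimum. By TPM over protein-coding genes alone, however, Cebpb was higher in replicate 1, at 624 against 575 in replicate 2. Of 50 log2 ratios recomputed over the 10 members, 38 kept direction and call, 7 turned and 5 lost the call without turning. Mxd1 turned to -0.0084 with total counts, -0.046 with kallisto-layout counts and -0.71 with ERCC scaling, where Runx1, Cebpg and Gfi1 turned to -0.69, -0.52 and -0.53. Runx1, which did not pass, was also at -0.0012 with kallisto-layout counts. With no count minimum, where more genes share the adjustment, 5 members differed in place of 8, without Mxd1, Cebpa and Cebpg. Cebpg also lost its call with total counts and kallisto-layout counts, at 0.18 and 0.16. With total counts Mxd1 lost its call too, and 6 members differed. By kallisto-layout counts 7 members differed, among them Mxd1 as higher in replicate 2. ERCC scaling raised the members that differed to 10, against 8, and the genes that differed to 11350, against 4847. The members' median TPM was 107.9 over protein-coding genes alone, against 42.9. The Cebpb share of the family was 59.8% by expected counts, against 68.8%. The distal share of Runx1 was 52.2% in the kallisto layout and 48.0% by expected counts, against 56.6%, and that of Spi1 was 53.4% and 11.7%, against 33.6%; these alternatives were chosen after seeing the data. Leaving out a library gives the value of the other, which with 2 libraries says nothing about stability. The members with the same leading transcript were then 7 without replicate 1 and 8 without replicate 2, against 9. The comparison of the libraries needs both and has no replicate check. No paired analysis was possible because there is 1 group. With 2 libraries of 1 donor identifier, the SD itself is poorly known.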
